A study of Mus musculus with 6 samples.

Results

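The T cell and cytotoxic genes Cd3d, Cd3e, Cd3g, Cd4, Cd8a, Cd8b1, Lck, Foxp3, Gzma and Gzmb were followed in the gastric mucosa of mice with and without A4gnt. They were taken as every probe on the array that is not a control and carries 1 of the 10 gene names, which gave 12 of 39399 probes, for 10 of 31689 genes and unnamed transcripts. A4gnt encodes the enzyme that puts the terminal α1,4-linked N-acetylglucosamine on the mucin of gastric glands. The null and wild-type mice were all C57BL/6J, and RNA came from the mucosa of the glandular stomach after the muscle layer had been stripped away. The A4gnt-null mice were 5, 10 and 50 weeks old and the wild-type mice 5, 10 and 50 weeks old, with 1 mouse and 1 one-colour array for each genotype and age, so 6 arrays in all.

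A T cell recognises antigen through a receptor that signals through the CD3 chains, and the co-receptors CD4 and CD8 divide helper from cytotoxic T cells. The kinase Lck, bound to these co-receptors, phosphorylates the CD3 chains, Foxp3 directs the regulatory T cell programme, and granzymes are the proteases that cytotoxic T cells and natural killer cells release into their targets. In the gastric mucosa, T cells lie as scattered cells in the lamina propria and between epithelial cells, so their transcripts are diluted by those of the epithelium. In such bulk RNA, fewer cells of a type and less RNA per cell cannot be told apart.

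Each probe reads a 60-base stretch of 1 transcript, and the results turn on probes that lay close together or apart in the same gene. The last 30 bases of 5 probes are given 5′ to 3′ as the array's file holds them, because the pair for Cd4 disagreed and because Cd3e, Lck and Gzma carry the other measured signals. Capitals mark the hexamer AATAAA, the usual polyadenylation signal.
Cd3e: taatgcaaaaggcAATAAAgtgtattggct
Cd4, bright probe: acagaaaAATAAAggctataAATAAAatgc
Cd4, dim probe: gcagtgtctactgagtgaaggtgataaggt
Lck: tgcctagcacacaccaggagctcAATAAAa
Gzma: gtctgatcacaAATAAAatcaacttgaatg
In the mm9 coordinates of the array's files, all 5 lie on the minus strand, with Cd3e at chr9:44806828-44806887, the bright Cd4 probe at chr6:124814711-124814770, the dim Cd4 probe at chr6:124817706-124817765, Lck at chr4:129225614-129225673 and Gzma at chr13:113884035-113884094. The files do not state which exon or UTR a probe lies in. AATAAA was present on the printed strand in 4 of the 12 probes, those of Cd3e, Lck and Gzma and the bright probe of Cd4, against 12.6% of all 39399 probes. Its reverse complement TTTATT was in 0 of the 12 and in 4.03% of all probes. Across the whole array, 60.2% of probes with AATAAA and 48.4% of those without it were well above background on all 6 arrays.

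Most of these genes gave no signal that the scanner software separated from background. It calls a spot well above background when the spot clears the local background by a set margin, and the dimmest spots so called read 10.1 to 11.6 units of processed signal. Cd3e, Cd4 and Lck were well above background on 6 of 6 arrays, Gzma on 3, Foxp3 on 2 and Cd3g on 1. Cd3d, Cd8a, Cd8b1 and Gzmb were so on 0 of 6. Over all genes on the array, 50.4% were well above background on 6 arrays and 36.7% on 0. Values for a gene that is not well above background are given only to show where they lie. No order is read from them, except that the fits and the counts of genes higher or lower at all 3 ages include them.

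**Figure D1:**
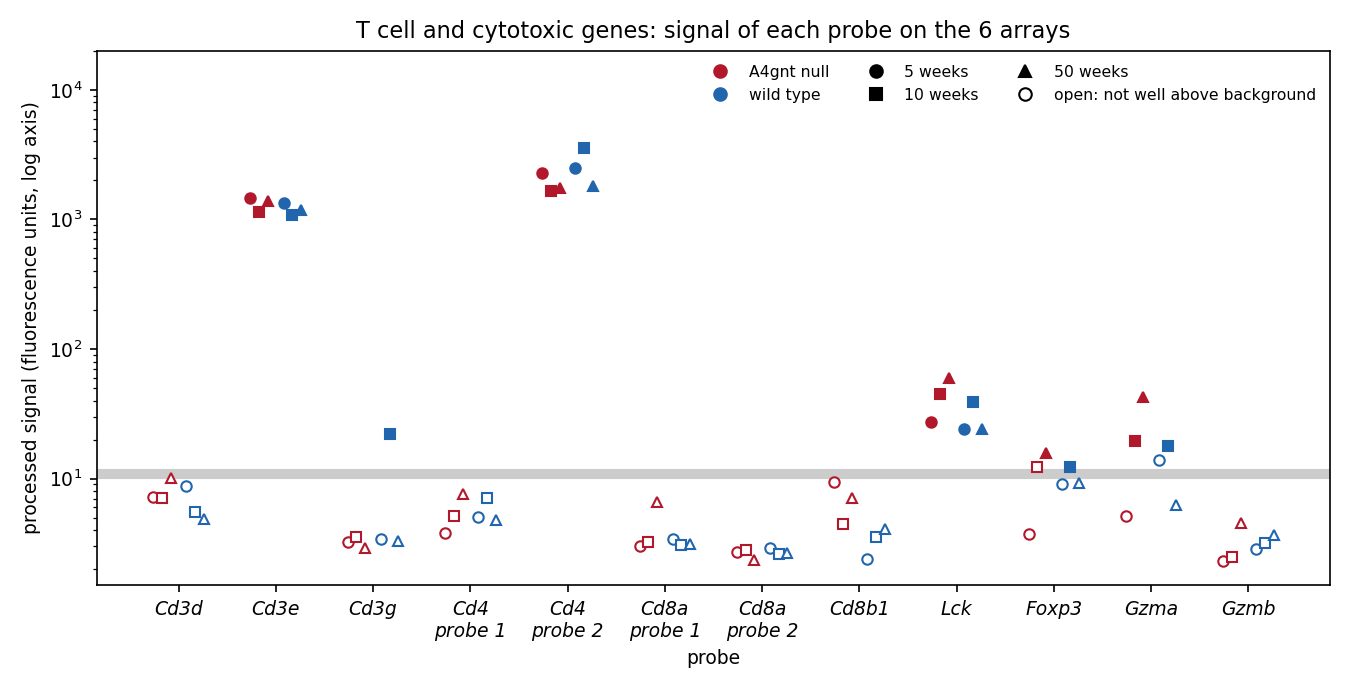
Processed signal (fluorescence units, log axis) of each of the 12 probes on the 6 arrays, A4gnt null in red and wild type in blue, with open symbols where the probe was not well above background. The grey band spans the lowest signals called well above background, 10.1 to 11.6 units; Cd3e and 1 Cd4 probe lie between 1086 and 3531 units on all 6 arrays, and Cd3d, Cd8a, Cd8b1 and Gzmb at or under the band.

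The CD3 chains disagreed in whether they were measured. Cd3e, the epsilon chain, read 1474, 1140 and 1381 units in the A4gnt-null mice of 5, 10 and 50 weeks, against 1336, 1086 and 1187 units in the wild-type mice. Cd3d, the delta chain, read 7.19, 7.03 and 10.2 units in the null mice and 8.78, 5.50 and 4.88 units in wild type, all not well above background. Cd3g, the gamma chain, read 3.24, 3.56 and 2.90 units in the null mice and 3.40, 22.1 and 3.31 units in wild type. Only the 10-week wild-type array was well above background for Cd3g, which put wild type at least 1.70-fold above null at that age, with 1 array a side and no replicate. So 1 CD3 chain of 3 was measured throughout, and the 3 chains cannot be read as 1 complex here. Whether the bright Cd3e probe tracks Cd3e mRNA was not tested, and each Cd3e value here is that of this 1 probe.

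For Cd3e the genotypes overlapped. Arrays were scaled to their 75th percentile, which was 235, 299 and 369 units in the null mice and 242, 335 and 270 units in wild type at 5, 10 and 50 weeks. After this scaling, Cd3e differed by 0.19 and 0.24 (log2, null minus wild type) at 5 and 10 weeks and by -0.23 at 50 weeks, although the unscaled signal was higher in the null mouse at every age. Over the 3 ages the difference was 0.06 ± 0.15 (log2, SE, n = 3 per genotype), with an adjusted p of 0.816 in limma. The mean difference was thus within the variation of that difference from age to age.

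The co-receptor of helper T cells, Cd4, depended on the probe. The bright probe read 2287, 1642 and 1748 units in the null mice, against 2470, 3531 and 1823 units in wild type. After scaling this was 1.05-fold lower in the null mouse at 5 weeks, 1.92-fold lower at 10 weeks and 1.43-fold lower at 50 weeks, so the null value was under its wild-type partner at all 3 ages. The difference over the ages was -0.51 ± 0.21 (log2, SE, n = 3 per genotype) with an unadjusted p of 0.0682 and a limma adjusted p of 0.235, and it did not pass. Without the 10-week pair the difference was -0.29.

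The dim Cd4 probe lies 2935 bases away on the genome, on the 5′ side of the bright probe along the minus strand, and is printed on 10 spots. The medians of its 10 spots were 3.33, 5.47 and 8.18 units in the null mice and 4.90, 7.07 and 5.05 units in wild type. A single spot of 60, on the 50-week wild-type array, read 64.4 units and was called well above background. It was left out as outlier-flagged, and the probe's value on that array was 4.79 units. These medians and spot counts include flagged spots. The Cd4 probes thus gave 1642 to 3531 units at 1 site and no signal above background at the other. Such a split, with 1 probe well above background on 6 arrays and another on 0, was found for 969 of the 6394 genes with several probes (15.2%). Which of the probes tracks Cd4 mRNA was not tested, and each Cd4 value here is that of the bright probe.

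**Figure D2:**
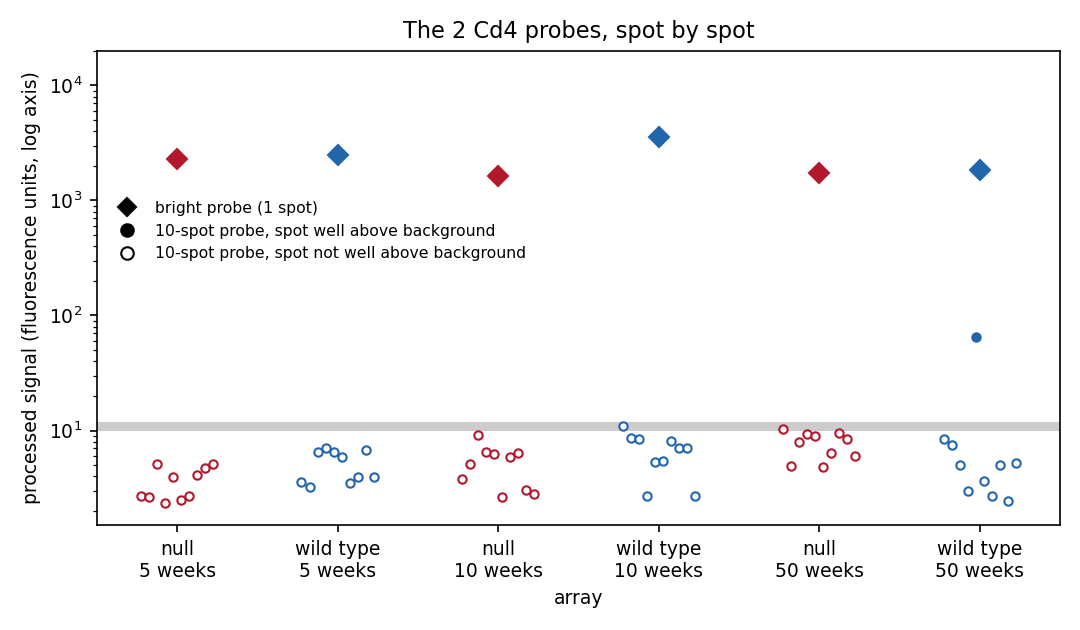
Processed signal (fluorescence units, log axis) of the bright Cd4 probe (diamonds, 1 spot per array) and of each of the 10 spots of the dim probe (circles) on the 6 arrays, A4gnt null in red and wild type in blue, with open circles for spots not well above background. The bright probe lies between 1642 and 3531 units, and 59 of the 60 spots of the dim probe lie near or under the grey band of the lowest signals called well above background. Outlier-flagged spots are drawn too, among them the spot far above the band.

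CD8, the co-receptor of cytotoxic T cells, was not detectable at this signal over background. Cd8a, the alpha chain, has a probe printed on 10 spots at chr6:71328911-71328970, and 0 of its 60 spots were well above background, with array medians of 2.44 to 2.88 units. The other Cd8a probe, at chr6:71323885-71323944, read 3.01, 3.24 and 6.64 units in the null mice and 3.40, 3.07 and 3.11 units in wild type. Cd8b1, the beta chain, read 9.39, 4.50 and 7.05 units in the null mice and 2.41, 3.51 and 4.07 units in wild type, on a single spot at chr6:71287231-71287290. Both Cd8a probes and the Cd8b1 probe therefore gave no value from which a genotype difference could be taken.

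Lck, the kinase that starts signalling from the receptor, was higher in the null mice at all 3 ages. It read 27.4, 45.0 and 59.7 units in the null mice, against 24.1, 39.1 and 24.2 units in wild type, highest in the null mouse of 50 weeks. After scaling, the null was 1.17-fold higher at 5 weeks, 1.29-fold at 10 weeks and 1.81-fold at 50 weeks. The scaled levels ran from -3.10 to -2.63 (log2) in the null mice and from -3.48 to -3.10 in wild type, so the groups met at the 5-week null and the 10-week wild-type mouse. The difference was 0.48 ± 0.17 (log2, SE, n = 3 per genotype), with an unadjusted p of 0.0452 and an adjusted p of 0.201 in limma, and so it failed the correction over all genes. Without the 50-week pair the difference was 0.30. These signals lie close above background, and with normexp background correction the 50-week difference was 0.13 in place of 0.85 (log2).

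Foxp3, which directs regulatory T cells, was at the edge of detection. It read 3.73, 12.4 and 15.8 units in the null mice and 9.15, 12.4 and 9.29 units in wild type, with the 50-week null and the 10-week wild-type arrays well above background. The 50-week null lay at least 1.06-fold above wild type, and at 10 weeks no fold could be given. No genotype difference was detectable for Foxp3 at this signal.

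The granzymes also disagreed in whether they were measured, though Gzma was far dimmer than Cd3e and not well above background on every array. Gzmb read 2.30, 2.47 and 4.51 units in the null mice and 2.85, 3.17 and 3.64 units in wild type, all not well above background, at chr14:56877916-56877975. Gzma read 5.15, 19.6 and 42.3 units in the null mice, against 14.0, 17.7 and 6.20 units in wild type. It was well above background in the null mice of 10 and 50 weeks and in the wild-type mouse of 10 weeks. At 10 weeks the null was 1.24-fold higher, and at 50 weeks 2.85-fold higher or more, while at 5 weeks neither array was well above background.

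A further probe on the array, named for the predicted transcript LOC100045268, shares 54 bases with the Gzma probe and lies at chr13:113884029-113884088, across the same stretch of the genome. It was singled out after its values were seen. It read 10.96, 21.2 and 44.9 units in the null mice and 11.3, 17.7 and 18.1 units in wild type, and was well above background on the 10-week and 50-week arrays of both genotypes. Here the 50-week null was 1.81-fold higher than wild type, under the bound of 2.85-fold from the Gzma probe itself. That bound was taken against 10.9 units, the lowest signal called well above background on the 50-week wild-type array. The overlapping probe measured that array at 18.1 units, while the Gzma probe was not well above background there, at 6.20 units. Both probes had their highest signal in the 50-week null mouse, and they disagreed on whether the 50-week wild-type mouse was well above background.

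Over the 3 ages, Gzma differed by 0.41 ± 0.75 (log2, SE, n = 3 per genotype) with a limma adjusted p of 0.759, in a fit that also holds 3 arrays not well above background. The overlapping probe gave 0.43 ± 0.20 with an adjusted p of 0.279. The trend test, which asks whether the genotype difference moves with the logarithm of age, gave an unadjusted p of 0.00685 for Gzma and an adjusted p of 0.999997, and an unadjusted p of 0.072 for the overlapping probe. A change of the Gzma difference with age was thus not called.

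**Figure D3:**
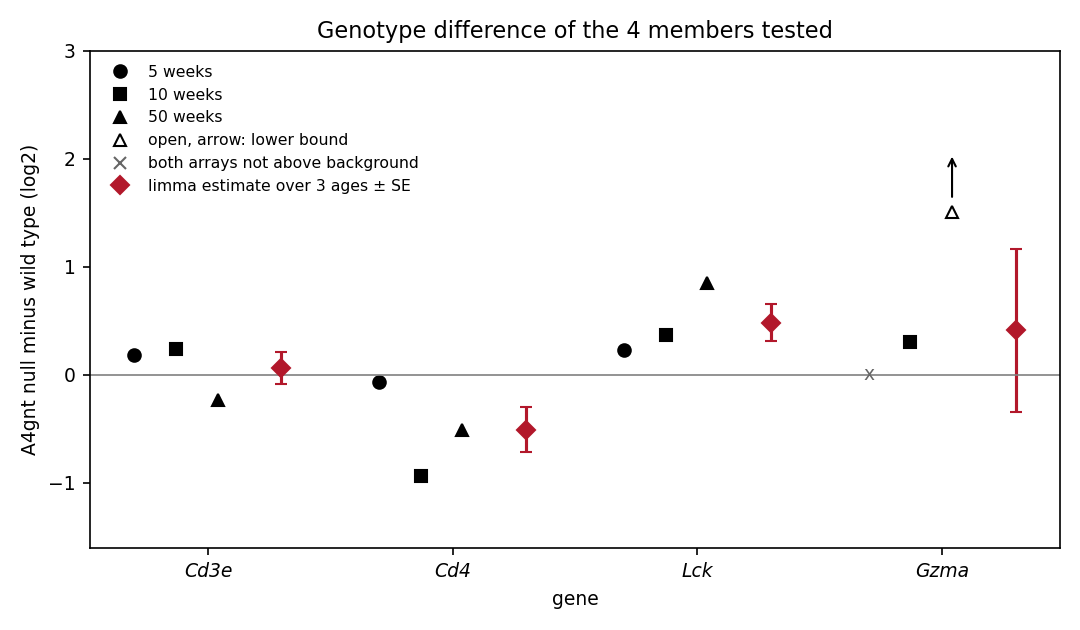
Difference between A4gnt null and wild type (log2, after scaling to the 75th percentile) for the 4 members tested, at 5, 10 and 50 weeks (black symbols) and as the limma estimate over the 3 ages with its SE (red diamonds). Lck lies above 0 at all 3 ages and Cd4 below 0, the open triangle of Gzma is a lower bound of 1.51, and no estimate passed the adjusted test. The probe overlapping that of Gzma, not drawn, gave 0.86 at 50 weeks.

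Across the 10 members, 4 had 3 or more arrays well above background and entered the tests, and 0 of the 4 passed the genotype test. The background is the same: 0.0% of the 17858 genes tested passed (limma, adjusted p under 0.05), with 4295 genes at an unadjusted p under 0.05 and a smallest adjusted p of 0.0909. Lck was higher and Cd4 lower in the null at all 3 ages, against 28.5% of all tested genes that were higher and 23.3% that were lower at all 3 ages. Those shares use the scaled signal of every array, also where a gene was not well above background. The median difference of the 4 tested members was 0.24 (log2), and that of all tested genes 0.01.

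At single ages, few members gave a fold. At 5 weeks, 3 members could be measured on both arrays, and 0 of them differed by 2-fold or more. Of the 18182 genes well above background on either array of that age, 4.89% were higher in the null by that much and 5.6% lower. At 10 weeks, 4 members were measured and 1 was bounded, 0 of them at 2-fold, beside 5.55% higher and 6.08% lower of 19041 such genes. At 50 weeks, 3 were measured and 2 bounded, and Gzma alone passed 2-fold, higher in the null, beside 2.49% higher and 5.4% lower of 18694 such genes. The probe overlapping that of Gzma measured 1.81-fold at 50 weeks, under 2-fold. These single-age values compare 1 mouse with 1 mouse. The null arrays shared 1 slide and scan and the wild-type arrays another, so slide and genotype cannot be told apart.

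With age, Cd3e and Cd4 were lower at 50 than at 5 weeks in both genotypes. Cd3e was lower at 10 weeks than at 5 weeks by 1.64-fold in the null mice and 1.70-fold in wild type, and lower at 50 weeks than at 5 weeks by 1.68-fold in the null mice and 1.25-fold in wild type. The contrast of 50 with 5 weeks over both genotypes was -0.53 ± 0.18 (log2, SE, n = 2 per age), with an unadjusted p of 0.0418 and a limma adjusted p of 0.252. Cd4 was lower at 50 than at 5 weeks by 2.06-fold in the null mice and 1.51-fold in wild type, a contrast of -0.82 ± 0.25 with an adjusted p of 0.241. With the mean of both Cd4 probes in place of the bright one, this contrast was -0.39 and the genotype difference -0.31 (log2).

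Lck and Gzma went another way. Lck at 50 against 5 weeks was 1.39-fold higher in the null mice and 1.11-fold lower in wild type, and Gzma at least 2.53-fold higher at 50 weeks in the null mice, with neither wild-type array well above background. For both genes the contrast over the genotypes did not pass, with adjusted p-values of 0.697 and 0.772 in limma. Of the 4 members, 0 passed any age contrast or the trend test. The share of all genes that passed was 0.0112% for 50 against 5 weeks, 0.0112% for 10 against 5 weeks, 0.0% for 50 against 10 weeks and 0.0% for the trend with age.

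The mice of 5 weeks also differed from the older mice in sex-linked transcripts. Xist, the RNA of the inactive X chromosome, read 66.7 units in the null and 161 units in the wild-type mouse of 5 weeks, and 2.73 to 3.55 units on the other 4 arrays. Ddx3y, on the Y chromosome, read 2.75 units in the null and 3.13 units in the wild-type mouse of 5 weeks, and 202 to 320 units on the other 4 arrays. Ddx3y and the Y-linked Eif2s3y were the genes that passed the contrasts with 5 weeks. The labels give no sex, and in every contrast with 5 weeks the age and the sex shown by these transcripts cannot be told apart. The contrast of 50 with 10 weeks does not hold this difference, and there Cd3e was 0.21 ± 0.18 and Cd4 -0.43 ± 0.25 (log2, SE), with adjusted p-values of 0.768 and 0.719 in limma.

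The genes whose levels ran most like those of the members are given as a description, over 6 arrays that share slides and sexes. For the CD3 chains the profile is that of Cd3e alone. Among 9386 candidates, the most alike were Mok, Acox3, Ptk7, Cyp17a1 and Lhx1os, with Pearson correlations of 0.979 to 0.988. For the granzymes the profile is that of Gzma alone, and among 2450 candidates Chil3 (0.882), Muc13 (0.819), Vegfd (0.807), Rhox8 (0.772) and Psg28 (0.771) were the most alike. Candidates were named genes other than the members, well above background on all 6 arrays and with a minimum spread set by that of the profile. Members and list genes outside this filter could not appear. None of these 10 genes is in the T cell and cytotoxic lists used here, and nothing is read from that.

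Besides the members, 8 lists of related genes were followed, with 115 of 120 genes on the array. Of these, 54 genes (47.0%) were well above background on 0 arrays, 43 were tested, and 0 of the 43 passed the genotype test or any age contrast. Of the 43, 14 were higher and 8 lower in the null at all 3 ages, beside the 28.5% and 23.3% of all tested genes given above. These counts use the scaled signal of every array, also where a gene was not well above background. Their median difference was 0.07 (log2), beside 0.01 for all genes tested, and the smallest adjusted p was 0.0954.

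**Figure D4:**
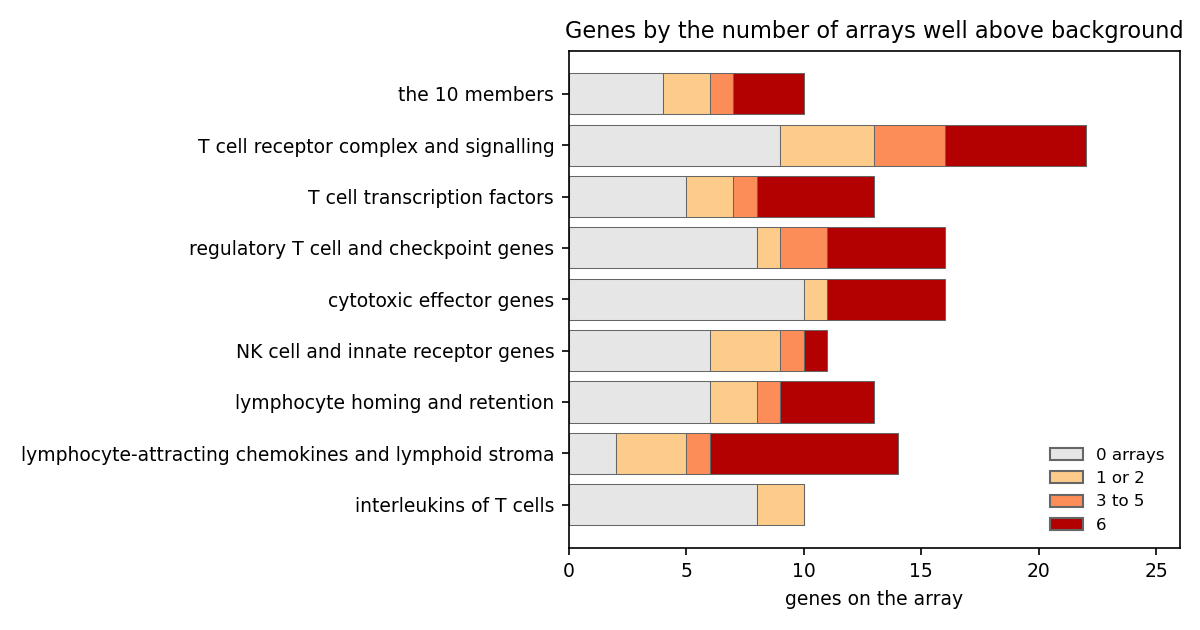
Number of genes on the array in each list, split by the number of arrays on which the gene was well above background, with the 10 members in the top row. Interleukins of T cells have 8 of 10 genes at 0 arrays, and cytotoxic effector genes 10 of 16.

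Of the T cell receptor and signalling genes, 9 of the 22 on the array were tested, with a median difference of -0.31 (log2). By scaled signal, 0 were higher and 3 lower in the null at all 3 ages, beside 28.5% and 23.3% of all tested genes. Zap70, the kinase recruited to phosphorylated CD3 chains, read 11.2, 6.96 and 7.37 units in the null mice, against 33.5, 41.9 and 16.2 units in wild type. It was well above background on all 3 wild-type arrays and on the 5-week null array, where it was 2.90-fold under wild type. The bound on the deficit was 3.21-fold at 10 weeks and 2.19-fold at 50 weeks. Its fitted difference was -1.85 ± 0.23 (log2, SE, n = 3 per genotype) with a limma adjusted p of 0.114, in a fit that holds 2 null arrays not well above background. Zap70 thus lay lower in the null at every age, while Lck, upstream of it in the same pathway, lay higher.

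Other genes of the receptor pathway lay on both sides. Cd247, the zeta chain of the receptor, differed by -0.47 ± 0.13, the co-stimulatory receptor Cd28, well above background on 4 arrays, by -0.63 ± 0.46 and the surface glycoprotein Thy1, which other cell types also carry, by 0.81 ± 0.36 (log2, SE), with adjusted p-values of 0.170 to 0.441 in limma.

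Receptor chains themselves were taken from the probes whose description in the file names a T cell receptor, a set chosen after the values were seen. Of these 81 probes, 61 were well above background on 0 arrays and 7 on all 6. In the null mice of 5, 10 and 50 weeks, 13, 13 and 14 of them were well above background, against 10, 14 and 8 in wild type. Over all spots of these arrays, 55.2%, 56.5% and 58.6% were well above background in the null mice, against 54.8%, 59.2% and 55.9% in wild type. The count of receptor probes and the share of all spots were thus both higher in the null mice at 5 and 50 weeks and higher in wild type at 10 weeks, so nothing is read from the receptor probes.

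Among the T cell transcription factors, 6 of 13 were tested. Bcl11b, needed for commitment to the T cell lineage, read 24.7, 36.9 and 46.9 units in the null mice and 8.63, 8.28 and 20.8 units in wild type, with the 5- and 10-week wild-type arrays not well above background. Bcl11b was higher in the null by at least 2.22-fold at 5 weeks, by at least 3.88-fold at 10 weeks and by a measured 1.65-fold at 50 weeks. The fitted difference, in a fit that holds those 2 arrays, was 1.54 ± 0.34 (log2, SE) with a limma adjusted p of 0.150. Ets1 differed by 0.65 ± 0.17 and Ikzf2 by 0.17 ± 0.27. Tbx21, Gata3 and Runx3, which direct type 1 helper, type 2 helper and CD8 T cells, were well above background on 0 arrays.

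Of the regulatory T cell and checkpoint genes, 7 of 16 were tested. Tnfrsf18, which encodes the receptor GITR, read 253, 514 and 568 units in the null mice, against 93.9, 199 and 231 units in wild type. Its difference was 1.28 ± 0.19 (log2, SE) with an adjusted p of 0.125 in limma, and the null was higher at each age. Tgfb1 differed by 0.77 ± 0.16 and Nt5e, an ectonucleotidase, by -0.51 ± 0.12. Entpd1, the enzyme before it in that pathway, was well above background on 3 arrays. The null exceeded wild type by 1.02-fold at 10 weeks and by at least 1.60-fold at 50 weeks, with neither 5-week array well above background, and its fitted difference of 0.93 ± 0.60 (log2, SE) rests on those arrays too. Il2ra, Ctla4 and Icos, which regulatory T cells carry beside Foxp3, were well above background on 0 arrays. Tgfb1, Entpd1 and Nt5e are also expressed by other cell types.

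The cytotoxic effector genes had 5 of 16 tested. Prf1, the pore-forming perforin through which granzymes enter, read 127, 130 and 192 units in the null mice and 123, 135 and 134 units in wild type, a difference of 0.09 ± 0.11 (log2, SE, n = 3 per genotype) with a limma adjusted p of 0.633. Srgn, the proteoglycan core on which granules are packed, differed by 0.97 ± 0.24 and Gzmk by 0.36 ± 0.18. Gzmm differed by -0.79 ± 0.34 and the granule protein Nkg7 by -0.47 ± 0.13. Of the 5, Prf1, Srgn and Gzmk were higher in the null at all 3 ages by scaled signal, and Gzmm and Nkg7 lower. Prf1 was higher by 0.07 to 0.11 (log2), though its unscaled signal was lower in the null at 10 weeks. The shares over all tested genes were 28.5% higher and 23.3% lower at all 3 ages. Ifng and Fasl were among the 10 genes of this list that were well above background on 0 arrays.

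**Figure D5:**
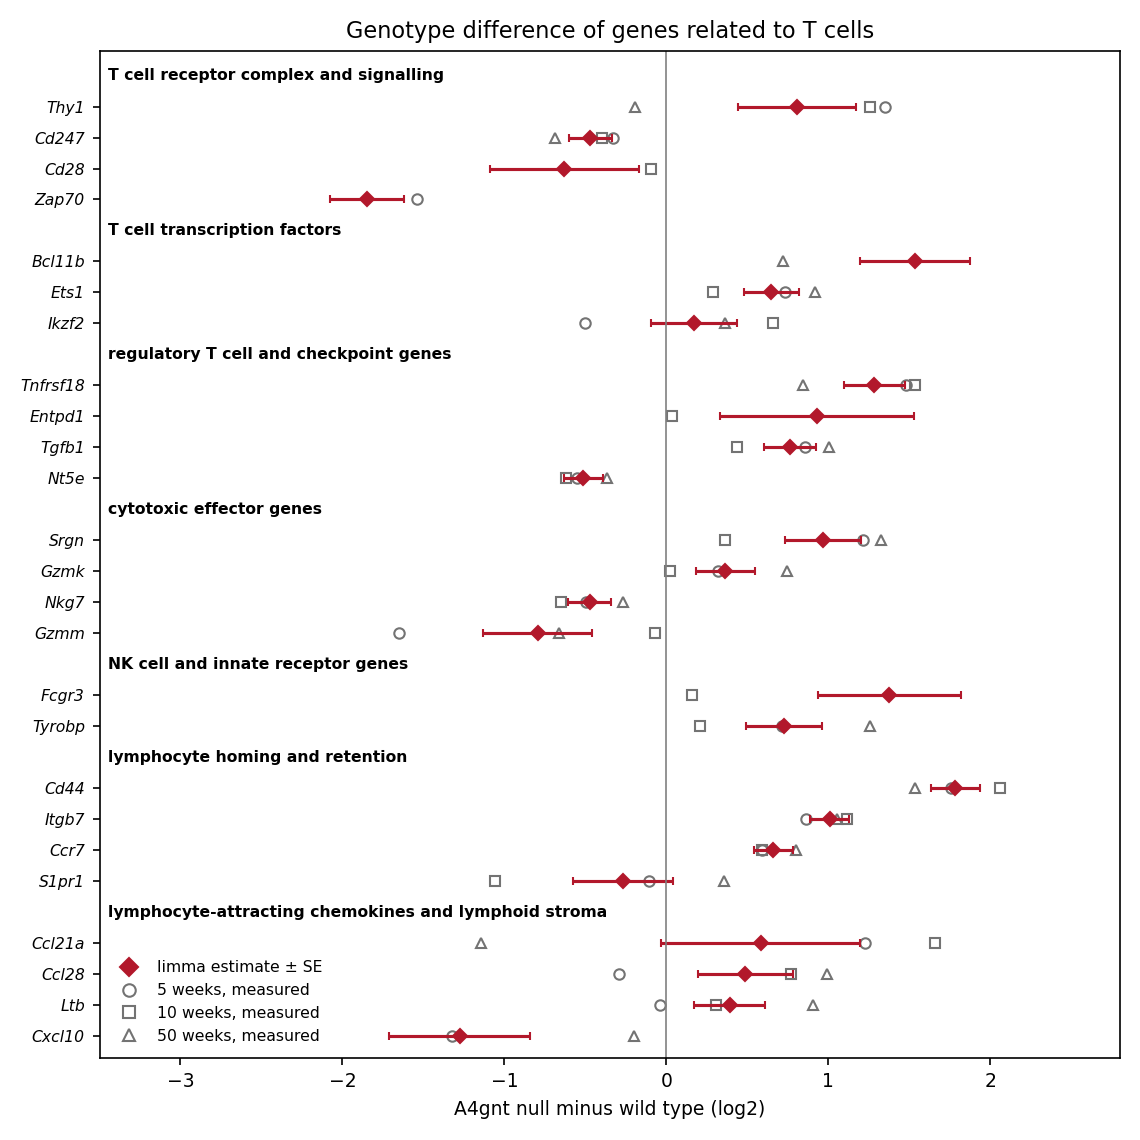
Difference between A4gnt null and wild type (log2) of genes named by size in each of the T cell lists, as the limma estimate with its SE (red diamonds) and at each age where both arrays were well above background (open grey symbols). Among the genes drawn, Cd44 at 1.78 and Zap70 at -1.85 lie farthest from 0, and no gene passed the adjusted test.

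The natural killer cell genes gave 2 of 11 for testing, Fcgr3 (1.38 ± 0.44) and Tyrobp (0.73 ± 0.24, log2, SE), both of which myeloid cells also express. Fcgr3 was well above background on 4 arrays, without the 5- and 50-week wild-type arrays that its fit also holds. The null exceeded wild type by at least 1.06-fold at 5 weeks and by 1.11-fold at 10 weeks, and no fold could be given at 50 weeks. Ncr1, Klrd1 and Klrk1, which natural killer cells carry, were well above background on 0 arrays. Klrb1c and Klre1 were so only on the 10-week null array, at 152 and 75.1 units, against 2.35 to 3.09 units on the other 5 arrays. Each is 1 probe on 1 array, without a replicate, and they were named after their values were seen.

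Of the homing and retention genes, 5 of 13 were tested. By scaled signal, 4 of the 5 were higher in the null at all 3 ages, beside 28.5% of all tested genes. That count takes in a gene with neither 10-week array well above background. Cd44, the hyaluronan receptor of memory T cells that epithelial cells also express, differed by 1.78 ± 0.15 (log2, SE) with a limma adjusted p of 0.0954. Itgb7, the beta 7 integrin of gut-homing lymphocytes, read 28.6, 68.5 and 92.8 units in the null mice and 16.3, 35.5 and 32.6 units in wild type, a difference of 1.01 ± 0.12 with an adjusted p of 0.114. Ccr7, a chemokine receptor that guides lymphocytes to lymphoid tissue, differed by 0.66 ± 0.12, and S1pr1, which lets them leave it, by -0.27 ± 0.31. Itgae, Cd69 and Cxcr3, which mark T cells held in tissues or called to inflamed ones, were well above background on 0 arrays.

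The chemokines that attract lymphocytes had 9 of 14 tested, with a median difference of 0.03 (log2). Ccl21a, made by lymphoid stroma and lymphatic vessels, read 158, 255 and 84.9 units in the null mice, against 69.5, 90.5 and 137 units in wild type. Its null value was thus above wild type at 5 and 10 weeks and under it at 50 weeks. Cxcl10, induced by interferon and well above background on 5 arrays, differed by -1.28 ± 0.44, Ccl28 by 0.49 ± 0.30 and Ltb by 0.39 ± 0.22 (log2, SE). Of the interleukins of T cells, 0 of 10 reached 3 arrays well above background, and Il2, Il4, Il17a and Il22 were so on 0 arrays.

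Between 50 and 5 weeks, 0 of the 43 tested genes of these lists passed, and the lowest adjusted p was 0.218 in limma. Among the genes with the largest differences in each list (log2, 50 minus 5 weeks) were Zap70 (-1.23), Cd6 (-0.50) and Sit1 (-0.48) of the receptor pathway, and Bcl11b (0.69) and Ikzf2 (0.32) of the transcription factors. Of the regulatory and checkpoint genes they were Entpd1 (-0.99), Tnfrsf4 (-0.83) and Tnfrsf18 (0.83), and of the effectors Gzmm (0.77), Gzmk (-0.20) and Srgn (-0.16). Of the natural killer genes they were Tyrobp (-0.83) and Fcgr3 (-0.60), of the homing genes Cd44 (1.20), Itgb7 (0.95) and S1pr1 (-0.87), and of the chemokines Cxcl10 (-1.24), Cxcl16 (-0.80) and Ccl28 (0.78). The values of Zap70, Bcl11b, Entpd1, Fcgr3 and Cxcl10 come from fits that hold arrays not well above background. These contrasts carry the sex difference of the 5-week mice named above.

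Markers of other cells differed beside these genes, and their part in the values of Lck, Gzma, Itgb7 and the other genes was not tested. The summed scaled signal of the 7 tested pan-leukocyte markers was 5.59 to 5.76 in the null mice and 4.68 to 5.26 in wild type (multiples of the array's 75th percentile). Ptprc, which encodes CD45, was well above background on 4 arrays, and Cd53 on 0. For mast cell markers the sum over 5 of 7 genes was 4.44 to 10.73 in the null mice and 2.91 to 3.95 in wild type, with Cma1 on 0 arrays. Without the brightest, Mcpt2, the sum was 2.52 to 5.27 in the null mice and 2.31 to 2.57 in wild type, so the ranges overlapped. For macrophage and dendritic cell markers it was 101 to 118 in the null mice and 113 to 195 in wild type, over 7 of 10 genes, with Cd68 on 0 arrays. Most of that sum was the probe of Siglech, and without it the sum was 9.34 to 13.5 in the null mice and 7.97 to 10.4 in wild type. Of the 7 macrophage and dendritic cell markers, 4 were higher and 1 was lower in the null at all 3 ages by scaled signal. The shares over all tested genes were 28.5% higher and 23.3% lower. The 7 had a median difference of 0.35 (log2). The largest genotype differences (log2, fitted over the 3 ages) were Ptprc (1.11 ± 0.93, SE), Cd52 (0.87), Coro1a (0.79) and Laptm5 (0.38) of the leukocyte markers, Mcpt2 (1.89), Mcpt4 (1.69), Mcpt1 (1.64) and Kit (-0.84) of the mast cell markers, and Itgax (1.46), Mpeg1 (0.96), Aif1 (0.89) and Siglech (-0.43) of the macrophage and dendritic cell markers. Of the epithelial markers they were Atp4a (-1.30), Cblif (-0.97), Muc6 (0.95) and Tff2 (0.86), and of the smooth muscle markers Acta2 (0.28), Cnn1 (0.24), Actg2 (0.23) and Des (0.22). The value for Ptprc rests on 5 weeks, where the null was at least 3.62-fold higher, while at 10 and 50 weeks it was at least 1.03-fold lower and 1.20-fold lower. The fits of Itgax and Des each hold 1 array not well above background. None of these passed the adjusted genotype test, as none of all genes did. All 10 gastric epithelium markers were well above background on 6 arrays. A4gnt itself read 2.11 to 2.94 units in the null mice and 165 to 325 units in wild type, at least 15.0-fold lower in the null at each age.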

How the data were processed

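Spot fluorescence intensity comes from Agilent Feature Extraction 10.7.1.1, per the file headers, and its background-subtracted processed signal was used. Cy3-labelled cRNA was made from total RNA, per the labels. A second table from the authors holds log2 values that match the log2 processed signal plus a constant of each array (-7.88 to -8.54), within 0.001 for 100% of probes. How that constant was chosen is not given in the sources used here, and this deposited table was an alternative only. Probe coordinates are those of mm9 in the files.

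Outlier-flagged spots (98 to 144 an array) were left out before the log2 signals of a probe's spots were averaged and the 75th percentile of the array subtracted. No array had a saturated spot (0 in all), and 54.8% to 59.2% of spots per array were well above background. A probe with several spots counted as such if over 50% of its spots were. Each gene is represented by its brightest probe on average, and was tested where 3 or more arrays had it well above background. Genotype (with age as a factor) and age were fitted with limma 3.58.1 in R 4.3.3, checked on simulated data, with Benjamini-Hochberg adjustment over all genes and a threshold of 0.05. The trend test has an interaction of genotype with log2 age. Where 1 array was not well above background, a fold is a bound against the higher of that array's lowest signal called well above background and the probe's own signal. With 1 mouse per genotype and age, the number of arrays limits the precision. The p-values of the genotype and age tests rest in part on how far the null minus wild-type difference varied from age to age, with 2 residual degrees of freedom. Limma also drew each gene's variance toward that of all tested genes, with 2.14 prior degrees of freedom.

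The members and gene lists were chosen with earlier results of these data known. Genes of the other lists were named as the 4 with the largest mean genotype difference and the 3 with the largest difference between 50 and 5 weeks. Some genes of the lists are not reported here by name. Alternatives changed background correction, scaling, probe choice, filter, variance model, age term and the ages included. 0 columns of per-sample values could not be mapped.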

Additional observations from a re-analysis of the deposited data

Results flagged for a closer look

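Among the members and the genes named from the lists, 5 had genotype differences of at least 2-fold in opposite directions at different ages, with 1 array a side, and 0 of these was a member. For Ccl21a the null minus wild-type difference (log2) was 1.23 at 5 weeks, 1.66 at 10 weeks and -1.14 at 50 weeks. Acta2 differed by 1.77 at 5 weeks and -1.64 at 50 weeks, Actg2 by 2.39 and -2.43, Cnn1 by 2.90 and -2.69, and Des by at least 1.18 and -2.90, all of them genes of smooth muscle. In the trend test of limma 0 of 17858 genes passed (500 at an unadjusted p under 0.05), so these differences between ages were not shown by a test.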

How the results depend on the processing

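No member passed the genotype test under any of 48 combinations of member and alternative run, with a lowest adjusted p of 0.138 for Lck with median scaling. The number of all genes called by genotype was 198 with normexp, 58 with an intensity trend in eBayes, 7 with no age term and 1 with quantile normalization, against 0 in the main analysis. For 50 against 5 weeks, 13 genes were called with normexp, 5 with the intensity trend, and 0 with the filter on all 6 arrays or with no filter, against 2. For 10 against 5 weeks it was 5 with normexp and 0 with either filter change, against 2. The cause was not tested, except that the filter on all 6 arrays removes Ddx3y and Eif2s3y by construction. Leaving out 1 age pair at a time moved Cd4 between -0.73 and -0.29 (without 10 weeks), Lck between 0.30 (without 50 weeks) and 0.61, Cd3e between -0.023 (without 10 weeks) and 0.21, Gzma between -0.54 (without 50 weeks) and 1.31, and the median of the tested members between -0.14 (without 50 weeks) and 0.31. Keeping only genes above background on all 6 arrays gave a median of 0.064, since Gzma then drops out. With normexp, whose offset is 50 units, the difference at 50 weeks was 0.13 for Lck and 0.22 for Gzma (2.32 from the probe's own signals in the main analysis), and the contrast of 50 with 5 weeks turned to -0.090 for Lck and -0.13 for Gzma. The probe overlapping that of Gzma, chosen after seeing the data, gave 0.86 at 50 weeks. Scaling to the median moved the median genotype difference of all genes to 0.13, and no filter moved it to -0.12. The age term of the main analysis pairs the null and wild-type array of each age, and without it 0 members passed either. The slide could not be fitted as a block because each slide held 1 genotype. Signals near 10 units limit what can be said of Foxp3, Gzma and Lck.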

Other observations

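Among the B and plasma cell markers, Cd79a and Ms4a1 were well above background on 0 arrays, as were Cd8a and Cd8b1 among the T cell genes. Jchain, the joining chain of secreted IgA and IgM, read 12.7, 66.2 and 229 units in the null mice of 5, 10 and 50 weeks, against 7.15, 37.8 and 120 units in wild type. Over both genotypes its difference between 50 and 5 weeks was 3.72 (log2), with a limma adjusted p of 0.0811, in a fit that holds both 5-week arrays, neither of them well above background. Against those arrays no fold is given, and the mice of 5 weeks also differ in sex-linked transcripts. The largest fitted genotype differences among these markers were Jchain (0.78), Cr2 (-0.65, with 1 array not well above background), Cd22 (-0.34) and Cd79b (0.28, log2, null minus wild type), and 0 of the 4 tested passed.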
